A study of Rattus norvegicus with 6 samples.

Results

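The genes described here encode the C1q complex (C1qa, C1qb and C1qc), the receptors for the complement anaphylatoxins (C3ar1, C5ar1 and C5ar2) and properdin (Cfp). They were taken by symbol from the deposited table. All 7 were found among its 32623 genes, each in 1 row, and all 7 had enough counts to be among the 14499 genes tested. The samples were rat liver (Rattus norvegicus), sequenced as poly(A)-selected RNA in 3 libraries of the HCC group, untreated controls of a hepatocellular carcinoma study, and 3 libraries of the TAE group, which underwent transarterial embolization. Embolization blocks the arteries that supply a liver tumour. The labels name no strain, sex, age, tumour model or time after embolization, and do not say whether tumour or surrounding liver was sampled. Replicates are numbered as biosamples, with no word on separate animals. The p-values therefore measure only how far these samples spread, which may be technical.

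C1q is the recognition part of the classical complement pathway. It is built from equal numbers of A, B and C chains, each with a collagen-like stalk and a globular head that binds antibody complexes, pentraxins and dying cells. Most plasma complement proteins are made by hepatocytes, whereas C1q is made mainly by macrophages and related myeloid cells. Cleavage of C3 and C5 releases the anaphylatoxins C3a and C5a, which act on the G protein-coupled receptors C3aR1 and C5aR1 of myeloid cells and mast cells. C5aR2 binds C5a but signals through arrestins rather than G proteins. Properdin, secreted by leukocytes, stabilises the C3 convertase of the alternative pathway.

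Total counts were 13448286 to 16604067 per library. Hepatocyte markers were abundant in all 6 libraries, as the liver label would have it. Their summed level (7 genes) was 17784 to 22841 FPKM in HCC and 9869, 7467 and 21711 FPKM in TAE replicates 1, 2 and 3, so that TAE replicate 3 lay within the HCC range and the other two below it. FPKM is the read count scaled to the length of a gene's exons and to the library total, and is the scale of all levels given below.

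The question was whether transcripts of C1q, the anaphylatoxin receptors and properdin differed between embolized and control liver. C3ar1 rose 4.16-fold and C5ar1 3.57-fold, with no overlap between the groups. The 3 C1q chains stood about 2-fold higher on average in TAE (2.04 to 2.27), with no overlap, but did not pass the test, as was the case for properdin at 1.71-fold. C5ar2 had a fold of 1.23, did not pass, and its groups overlapped. In edgeR's quasi-likelihood test at an adjusted p of 0.05, 2 of the 7 genes rose, 0 fell and 5 did not pass. Over all genes tested, 2.70% were called higher and 0.310% lower in TAE. At an unadjusted p under 0.05, 6 of the 7 were higher against 15.9% of all genes tested. The groups did not overlap, with TAE higher, for 6 of the 7 genes against 18.6% of all genes tested. The median log2 change of the 7 genes was 1.16, and that of all genes tested was -0.03. The 7 genes were chosen with earlier results of these data known, so these shares do not test them as a set. In bulk tissue, more cells of a type and more RNA per cell cannot be told apart.

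**Figure D1:**
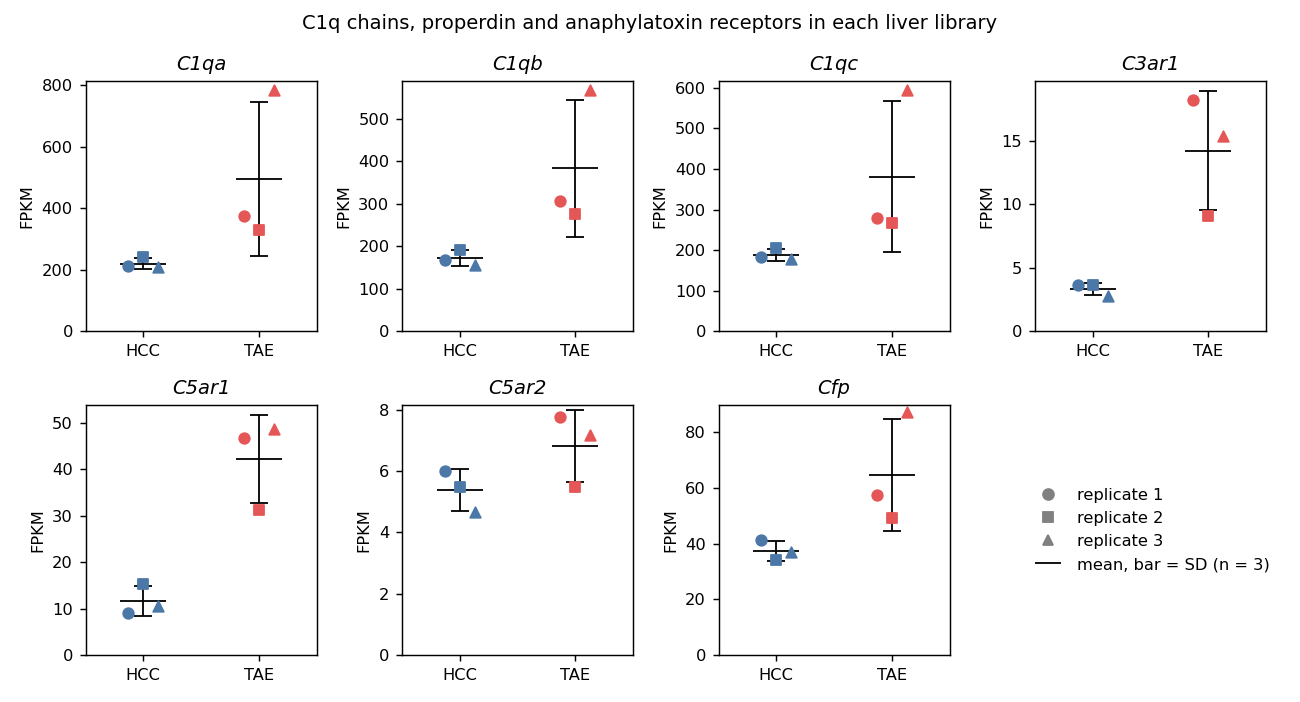
Level of each gene in FPKM (linear axes from 0) in the 3 HCC and 3 TAE libraries; symbols mark the replicate, horizontal lines the group mean and bars the SD. C1qa reached 785.24 FPKM in TAE replicate 3 and stayed at or below 373.67 FPKM in the other libraries, while C5ar1 was at 31.24 to 48.71 FPKM in all 3 TAE libraries.

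C3ar1, the receptor for C3a (gene ENSRNOG00000009211, chromosome 4, 155684029 to 155690869, minus strand), stood at 3.65, 3.60 and 2.80 FPKM in HCC replicates 1, 2 and 3 and at 18.21, 9.06 and 15.33 FPKM in TAE replicates 1, 2 and 3. Every TAE library lay above every HCC library, and TAE replicate 2 was the lowest of the TAE group. The mean went from 3.35 ± 0.477 to 14.2 ± 4.68 FPKM (mean ± SD, 3 libraries each). The fitted log2 change was 2.06 ± 0.32 (± SE here and below; edgeR adjusted p = 0.0388). Of all genes tested, 0.910% had a larger log2 change. The gene was counted at 80 to 106 reads in HCC and 304 to 536 in TAE, so that its HCC level carried more counting error than that of the C1q genes.

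C5ar1, the main signalling receptor for C5a (gene ENSRNOG00000047800, chromosome 1, 78186776 to 78195328, minus strand), stood at 9.14, 15.25 and 10.48 FPKM in the HCC libraries and at 46.66, 31.24 and 48.71 FPKM in the TAE libraries. The groups did not overlap, and the lowest TAE library was again replicate 2. The mean went from 11.6 ± 3.21 to 42.2 ± 9.55 FPKM, and the fitted change in log2 units was 1.84 ± 0.30 (edgeR adjusted p = 0.0388). Both receptors were also called in the 8 other fits that kept all 6 libraries without a block. The share of all genes called higher was 2.94% with RLE scaling, 4.59% with upper-quartile scaling, 6.63% with library totals only, 3.51% without a filter, 2.68% with a minimum of 10 counts in 3 libraries, 8.81% with DESeq2, and 4.27% and 4.38% with limma at pseudocounts of 1 and 0.1. Neither was called without HCC replicate 1, 2 or 3 or TAE replicate 1, where adjusted p was 0.186, 0.142, 0.223 and 0.145 for each, while the log2 change stayed at 1.89 to 2.13 for C3ar1 and 1.68 to 2.09 for C5ar1. In those 4 fits edgeR called 0, 1, 0 and 1 of all genes tested.

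C5ar2, the second receptor for C5a, lies beside C5ar1 on the same strand (gene ENSRNOG00000049028, chromosome 1, 78166810 to 78180216), and the pair spans 28.5 kb. It stood at 6.01, 5.49 and 4.66 FPKM in HCC and 7.77, 5.49 and 7.19 FPKM in TAE. TAE replicate 2 fell within the HCC range. The log2 change was 0.30 ± 0.25 (edgeR adjusted p = 0.469), or 1.23-fold with a 95% interval of 0.825 to 1.85. The ratio of C5ar1 to C5ar2 was 1.52, 2.78 and 2.25 in the HCC libraries and 6.01, 5.69 and 6.77 in the TAE libraries, so that the ratio was higher in every TAE library than in any HCC library. The difference was 1.54 on the log2 scale (exact permutation test, two-sided, p = 0.1, the smallest that 3 against 3 libraries can give; adjusted p = 0.167 over the 5 ratios tested). The ratio of C3ar1 to C5ar1 differed by 0.17 on the log2 scale (exact permutation p = 0.6, adjusted p = 0.75), less than its SD among the HCC libraries of 0.40.

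The C1q genes lie side by side within 17.7 kb of chromosome 5, in the order C1qb, C1qc and C1qa and all on the minus strand. C1qa, the A chain (gene ENSRNOG00000012807, 155261250 to 155264143), stood at 211.35, 240.11 and 209.15 FPKM in HCC and 373.67, 327.83 and 785.24 FPKM in TAE. C1qb, the B chain (gene ENSRNOG00000012749, 155246447 to 155252003), stood at 168.98, 192.25 and 156.54 FPKM in HCC and 307.09, 276.02 and 568.84 FPKM in TAE. C1qc, the C chain (gene ENSRNOG00000012804, 155255005 to 155258392), stood at 183.03, 204.66 and 177.27 FPKM in HCC and 279.08, 267.50 and 595.63 FPKM in TAE. All 3 genes showed the same picture: the HCC libraries were close together, TAE replicates 1 and 2 lay moderately above them, and TAE replicate 3 lay far above. Relative to the HCC mean, C1qa stood at 1.70, 1.49 and 3.57 times in TAE replicates 1, 2 and 3. Together the 3 genes took 0.0582% to 0.0683% of all counts in HCC and 0.103%, 0.0934% and 0.209% in TAE replicates 1, 2 and 3.

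Mean levels went from 220.2 ± 17.3 to 495.6 ± 252 FPKM for C1qa, from 173 ± 18.1 to 384 ± 161 FPKM for C1qb and from 188 ± 14.4 to 381 ± 186 FPKM for C1qc. The log2 changes were 1.18 ± 0.40, 1.16 ± 0.35 and 1.03 ± 0.39, and none passed over all genes (edgeR adjusted p = 0.148, 0.119 and 0.18). DESeq2 called C1qa and C1qb (adjusted p = 0.0347 and 0.019) but not C1qc, with 8.81% of all genes called higher. Without TAE replicate 3 the log2 changes were 0.56, 0.64 and 0.42, and edgeR called C1qa and C1qb (adjusted p = 0.0482 and 0.0342), with 4.82% of all genes called higher. Without TAE replicate 2 they were 1.46, 1.41 and 1.28, and edgeR called all 3 (adjusted p = 0.0282, 0.0229 and 0.0415), with 14.6% of all genes called higher. The size of the C1q difference thus moved by over 1.5 times with TAE replicate 3, while it was positive in every fit made.

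The proportions of the 3 chains to each other stayed within narrow limits. C1qa was 1.25, 1.25 and 1.34 times C1qb in HCC and 1.22, 1.19 and 1.38 times in TAE, a difference of -0.02 on the log2 scale (exact permutation p = 0.8). C1qc was slightly lower relative to the other chains in TAE: the ratio of C1qa to C1qc was 0.15 and that of C1qb to C1qc 0.17 higher on the log2 scale. In both ratios every TAE library lay above every HCC library (exact permutation p = 0.1, the smallest possible, and adjusted p = 0.167 over the 5 ratios).

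Promoters of 5 of the 7 genes were matched by symbol in the RefSeq table of the GRCr8 build, and C1qc and C5ar1 had no entry. The 250 bases before the start site are shown for C1qb and for properdin, both secreted proteins, because each holds more than 1 match of a motif searched. All 5 were searched on both strands for GAGGAA, a core of binding sites for the myeloid factor PU.1, and for a pair of GAAA with any 2 bases between them, a form of the interferon regulatory factor element. Capitals mark matches, and a match on the opposite strand is written as its reverse complement. No 2 of the matches shown overlap.
C1qb promoter (chr5:154407828-154408077, minus strand): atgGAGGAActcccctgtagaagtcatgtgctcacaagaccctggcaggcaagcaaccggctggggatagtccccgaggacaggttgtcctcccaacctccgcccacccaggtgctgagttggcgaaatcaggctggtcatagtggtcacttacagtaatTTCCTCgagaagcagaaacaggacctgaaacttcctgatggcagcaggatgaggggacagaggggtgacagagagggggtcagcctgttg
Cfp promoter (chrX:3715301-3715550, plus strand): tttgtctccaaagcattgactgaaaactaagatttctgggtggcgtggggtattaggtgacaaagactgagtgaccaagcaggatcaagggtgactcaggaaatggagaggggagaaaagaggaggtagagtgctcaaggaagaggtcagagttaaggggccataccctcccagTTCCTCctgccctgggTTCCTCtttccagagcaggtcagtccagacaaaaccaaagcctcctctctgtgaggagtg
C1qb held 2 matches of GAGGAA, which began 247 and 90 bases before the start, Cfp held 2, which began 76 and 60 bases before it, and C5ar2 held 1. At least 1 match was present in 23.3% of 33469 promoters of the same length. C1qa and C3ar1 held none. The paired GAAA had no match in the 5 promoters and occurred in 3.41% of all. These are letter matches only. Spi1, which encodes PU.1, rose from 19.4 ± 1.58 to 46.1 ± 4.41 FPKM (log2 change 1.22 ± 0.18, edgeR adjusted p = 0.0388). It is also 1 of the 14 macrophage and monocyte markers used below. Whether PU.1 had a part in the levels of the 7 genes was not tested.

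Properdin (Cfp, gene ENSRNOG00000025811, chromosome X, 1311121 to 1316682, plus strand) stood at 41.34, 34.16 and 36.85 FPKM in HCC and 57.42, 49.22 and 87.20 FPKM in TAE. The groups did not overlap, and TAE replicate 3 was the highest, as for C1q. The mean went from 37.5 ± 3.63 to 64.6 ± 20.0 FPKM, with a fitted log2 change of 0.78 ± 0.29 (edgeR adjusted p = 0.175), or 0.39 without TAE replicate 3 (adjusted p = 0.139). Without TAE replicate 2 it was 1.00 and was called (adjusted p = 0.029).

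By level per length, the C1q chains were the most abundant of the 7 in both groups, followed by Cfp and C5ar1. In HCC the mean of C1qa was 1.17 times that of C1qc, the next in order, without overlap. C1qc and C1qb followed at a ratio of 1.09 with overlapping ranges, and C1qb was 4.61 times Cfp. In TAE the ranges of the 3 chains overlapped, and C1qc was 5.89 times Cfp. The lowest places changed: in HCC C3ar1 lay below C5ar2 in every library, and in TAE it lay above C5ar2 in every library, at 2.08 times its mean.

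Markers of several cell types differed along with these genes. Among 14 genes that mark macrophages and monocytes, 9 rose against 2.70% of all genes tested, 0 fell and 5 did not pass. Those that rose included Cd68, Lyz2, Tyrobp, Msr1 and Csf1r. Of the 14, 13 had a log2 change above 0. Cd163 did not, at 105 ± 19.7 FPKM in HCC and 98.5 ± 30.3 FPKM in TAE (log2 change -0.10, edgeR adjusted p = 0.858). Without any 1 of the HCC libraries or TAE replicate 1, 0 of the 14 passed. No gene of this list was at 0. Their summed level was 1275 to 1629 FPKM in HCC and 3974 to 5308 FPKM in TAE. A large part of these sums was Lyz2, at 675 to 923 FPKM in HCC and 2790 to 3534 FPKM in TAE. Of 6 markers of Kupffer cells, the resident macrophages of liver (Clec4f, Vsig4, Marco, Cd5l, Nr1h3 and Id3), none passed with edgeR, DESeq2 or limma. These fits used all 6 libraries, and with edgeR 0 had an unadjusted p under 0.05. Their summed level was 323 to 406 FPKM in HCC and 260, 248 and 442 FPKM in TAE replicates 1, 2 and 3. Without TAE replicate 3, edgeR called 3 of the 6 Kupffer cell markers lower, with 3.51% of all genes called lower. The mean of the macrophage markers stood at 1.21, 0.73 and 1.67 on the log2 scale above HCC in TAE replicates 1, 2 and 3, and that of the Kupffer cell markers at -0.65, -0.97 and 0.55. Of 6 stellate cell and fibroblast markers, Lum rose and 5 did not pass, while all 6 were higher at an unadjusted p under 0.05 (median log2 change 1.56). Their summed level was 186 to 344 FPKM in HCC and 1344, 506 and 660 FPKM in TAE replicates 1, 2 and 3. Of 6 T and B cell markers, edgeR called 0, while 2 had an unadjusted p under 0.05, DESeq2 called 2 and limma 1. The summed level, most of it Cd8a, was 68.8 to 110.0 FPKM in HCC and 159 to 245 FPKM in TAE. Cd8a alone went from 66.4 ± 16.0 to 161 ± 36.1 FPKM. All 6 log2 changes were above 0, and the groups did not overlap for 2 genes, Cd8a and Ms4a1. The T cell genes Cd3e and Cd3d had log2 changes of 0.10 and 0.36, with groups that overlapped. The part of these cells in the changes of the 7 genes was not tested.

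**Figure D2:**
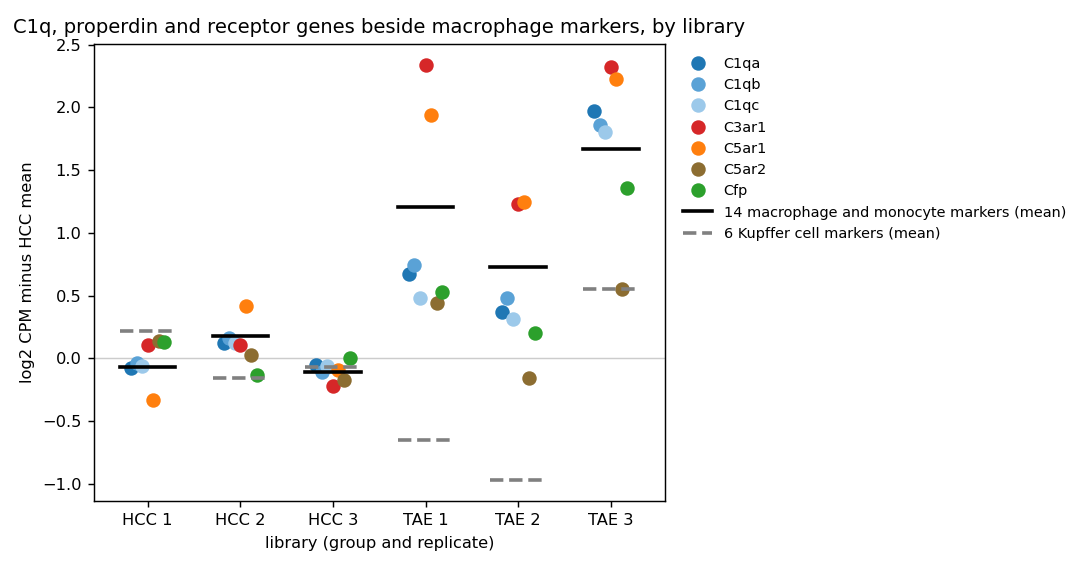
log2 CPM (a count over the TMM-scaled library size, with no length scaling) minus the HCC mean (vertical axis) in each of the 6 libraries (horizontal axis); points are the 7 genes, solid bars the mean of 14 macrophage and monocyte markers and dashed bars the mean of 6 Kupffer cell markers. C3ar1 and C5ar1 lay above the macrophage mean in all 3 TAE libraries, and of the 3 TAE libraries the C1q genes lay above it in replicate 3 only.

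The genes were then set against the macrophage markers, and the outcome depended on which markers served as the reference. The log2 level of each gene minus the mean of the 14 macrophage markers was taken in each library, with the HCC mean as 0. C3ar1 stood at 1.13, 0.50 and 0.65 and C5ar1 at 0.73, 0.53 and 0.56 in TAE replicates 1, 2 and 3, so that both were higher in TAE than in any HCC library. C5ar2 stood at -0.77, -0.89 and -1.12, below every HCC library. Cfp stood at -0.68, -0.53 and -0.31, and its highest TAE value was level with the lowest HCC value of -0.31. For each C1q chain the TAE libraries differed in direction: replicates 1 and 2 lay below every HCC library and replicate 3 above every one. C1qa stood at -0.54, -0.35 and 0.30, C1qb at -0.46, -0.25 and 0.19 and C1qc at -0.73, -0.42 and 0.13.

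On this scale the TAE means (± SD of the 3 TAE libraries only) were 0.76 ± 0.33 for C3ar1 and 0.61 ± 0.11 for C5ar1. They were -0.93 ± 0.18 for C5ar2 and -0.51 ± 0.19 for Cfp. The SD among the HCC libraries was 0.16 for C3ar1, 0.25 for C5ar1, 0.19 for C5ar2 and 0.27 for Cfp. For each of these 4 the exact permutation p was 0.1, the smallest possible with 3 against 3 libraries, and adjusted p was 0.175 over the 7 genes. For C1qa, C1qb and C1qc the means were -0.20 ± 0.44, -0.17 ± 0.33 and -0.34 ± 0.44 (exact permutation p = 0.5, 0.4 and 0.4). With Kupffer cell markers as the reference, the 3 TAE libraries came close together for the C1q chains. C1qa then stood at 1.32, 1.34 and 1.43, C1qb at 1.39, 1.45 and 1.31 and C1qc at 1.12, 1.28 and 1.25 above HCC in TAE replicates 1, 2 and 3 (exact permutation p = 0.1 for each, adjusted p = 0.117). C3ar1 was more spread on that scale, at 2.98, 2.20 and 1.77. The means of C5ar2 and Cfp also changed sign with it, with values of 1.08, 0.81 and 0 for C5ar2 (exact permutation p = 0.2, adjusted p = 0.2) and 1.17, 1.17 and 0.81 for Cfp. With Cd68, Csf1r and Adgre1 alone as the reference, C5ar1 stood at 0.67, 0.51 and 0.35 in TAE, and HCC replicate 2 at 0.37 overlapped with them (exact permutation p = 0.2, adjusted p = 0.233). C3ar1 stayed above and C5ar2 and Cfp below every HCC library with those 3 markers. The part of either cell type in the changes was not tested.

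**Figure D3:**
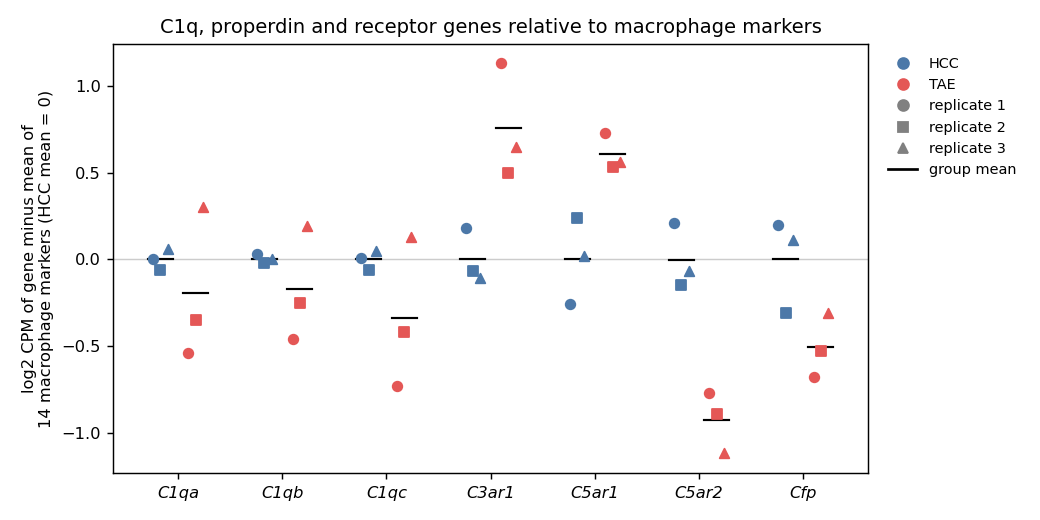
log2 CPM of each gene minus the mean log2 CPM of 14 macrophage and monocyte markers, with the HCC mean set to 0 (vertical axis), for the 7 genes (horizontal axis); points are libraries with symbols for replicates, and lines are group means. C3ar1 and C5ar1 lay above 0 and C5ar2 and Cfp below 0 in all 3 TAE libraries, while TAE replicate 3 lay apart from replicates 1 and 2 for the C1q chains.

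Markers of other cells that carry these receptors were followed as well. Of 4 neutrophil markers with enough counts, edgeR called 0, while 3 had an unadjusted p under 0.05, DESeq2 called 1 and limma 0, and the summed level of the 8 listed was 28.4 to 58.7 FPKM in HCC and 133, 59.0 and 142 FPKM in TAE replicates 1, 2 and 3. The granule genes Mpo, Camp, Ltf and Elane had too few counts to be tested, and Elane was listed at 0 in all 3 HCC libraries. Of 5 mast cell markers, Mcpt1, a protease with close copies in the genome, rose and 4 did not pass. All 5 were higher at an unadjusted edgeR p under 0.05, against 15.9% of all genes tested. Their groups did not overlap, and the median log2 change was 2.09. DESeq2 called 5 of 6 and limma 3 of 5, with 8.81% and 4.27% of all genes called higher. The summed level over 6 markers was 13.8 to 16.0 FPKM in HCC and 44.1 to 97.4 FPKM in TAE. Of 6 dendritic cell markers, Itgax, which is also among the complement receptors below, rose and 5 did not pass, with 11.5 to 16.2 FPKM in HCC and 22.5 to 25.9 FPKM in TAE. Without Itgax the sums of the other 5 overlapped, at 13.0, 8.16 and 8.97 FPKM in HCC and 12.2, 11.6 and 11.6 FPKM in TAE. In the fits without 1 HCC library or TAE replicate 1, none of the mast cell, dendritic cell or stellate cell markers passed with edgeR. The part of these cells in the levels of the anaphylatoxin receptors was not tested.

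Other genes of the complement system were taken as 9 lists, of which 68 of 69 genes were in the table and 62 were tested. Of these, 6 rose, 0 fell and 56 did not pass, which is 9.68% higher against 2.70% of all genes tested. The median log2 change was 0.22. These lists, too, were chosen with earlier results known, so the share does not test them as a set. An unadjusted p under 0.05 was found for 20 of the 62, 0 of them lower. The genes that rose belonged to cell surface receptors and their signalling partners. Of 9 other complement and C1q receptors, Itgam and Itgax rose and 7 did not pass (median log2 change 1.28). Itgam and Itgax encode the alpha chains of complement receptors 3 and 4, integrins that bind fragments of C3. Itgam stood at 5.77, 7.13 and 5.26 FPKM in HCC and 20.79, 17.24 and 22.61 FPKM in TAE (log2 change 1.71 ± 0.21). Itgax stood at 3.20, 3.33 and 3.18 FPKM in HCC and 12.78, 10.98 and 14.27 FPKM in TAE (log2 change 1.94 ± 0.20). For both genes edgeR gave an adjusted p of 0.0388. Neither showed the large step of C1q in TAE replicate 3. The integrin gene Itgb2 of the same list was highest in that library, at 70.50, 58.04 and 116.19 FPKM in TAE replicates 1, 2 and 3. It stood at 24.98, 30.16 and 25.30 FPKM in HCC and did not pass (log2 change 1.60 ± 0.33, edgeR adjusted p = 0.0516). Calr, the most abundant of this list, encodes calreticulin, which can act with C1q in the clearance of dying cells, and stood at 822 ± 26.6 and 904 ± 17.5 FPKM (log2 change 0.09, edgeR adjusted p = 0.722).

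Of 8 signalling partners of the anaphylatoxin receptors, Gna15, Arrb2, Pik3cg and Pik3r5 rose and 4 did not pass (median log2 change 1.00). Pik3cg and Pik3r5 encode the catalytic and a regulatory subunit of the phosphoinositide 3-kinase gamma that G protein beta-gamma subunits activate. Pik3cg went from 2.72 ± 0.291 to 6.75 ± 1.22 FPKM (log2 change 1.27 ± 0.20) and Pik3r5 from 3.47 ± 0.187 to 8.31 ± 0.491 FPKM (1.22 ± 0.17). Gna15, a G protein alpha subunit of blood cells, went from 2.70 ± 0.238 to 5.97 ± 0.436 FPKM (1.10 ± 0.16), with edgeR adjusted p = 0.0388 for these 3 genes. Arrb2, which encodes the arrestin that turns receptors off and carries signals of its own, went from 23.6 ± 3.08 to 45.3 ± 4.09 FPKM (0.90 ± 0.18, edgeR adjusted p = 0.0488). Gnai2, the most abundant partner and the inhibitory G protein subunit to which these receptors couple, stood at 153 ± 4.55 and 213 ± 13.9 FPKM and did not pass (log2 change 0.43, edgeR adjusted p = 0.105). Without any 1 of the HCC libraries or TAE replicate 1, 0 of the 62 genes passed.

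The soluble complement proteins, most of them products of hepatocytes, showed another pattern. Over 5 lists (classical pathway and its ligands, lectin pathway, C3 and alternative pathway, terminal pathway and soluble regulators) 35 genes were tested and edgeR called 0, while DESeq2 called 4 and limma 1, all higher. At an unadjusted p under 0.05 there were 5, all higher with groups that did not overlap (C2, Fcnb, Colec10, Cfd and C7, named after their values were seen), against 15.9% of all genes tested. Their log2 changes were 0.80, 0.54, 0.89, 1.24 and 2.16. List medians ran from -0.35 to 0.55. The highest was that of a list of 3 genes, where it was the value of Cfb alone, at 0.16 to 0.39 FPKM. The summed level of the 35 genes was 6938 to 7469 FPKM in HCC. It was 5199, 3474 and 10089 FPKM in TAE replicates 1, 2 and 3, so that the TAE libraries lay on both sides of HCC. C3, the central component and the source of C3a, stood at 1335, 1280 and 1369 FPKM in HCC and 982, 615 and 2129 FPKM in TAE (log2 change -0.07 ± 0.49, edgeR adjusted p = 0.943). The most abundant genes of the other lists, the pentraxin Crp, the mannose-binding lectin Mbl1, the pore protein C9 and the regulator vitronectin (Vtn), had log2 changes of -0.47, -0.22, -0.29 and -0.37 and did not pass. C3, Crp, Mbl1, C9 and Vtn were all lowest in TAE replicate 2 and highest in TAE replicate 3. C7, a terminal pathway protein, stood at 10.7 ± 2.11 FPKM in HCC and 48.4 ± 25.3 FPKM in TAE (log2 change 2.16 ± 0.45, edgeR adjusted p = 0.052). Without TAE replicate 3, 13 of the 35 genes fell and 1 rose, with 3.51% of all genes called lower and 4.82% higher. Without TAE replicate 2, 4 rose and 0 fell, with 14.6% of all genes called higher and 9.56% lower.

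The 4 membrane regulators that protect host cells (Cd46, Cd55, Cd59 and Cr1l) had log2 changes of -0.47, -0.51, 0.29 and 0.16. None passed with edgeR, DESeq2 or limma, and 0 had an unadjusted p under 0.05. Of 6 tested genes of the C1q and TNF family that share the globular head but are no part of C1q, none passed with edgeR and 5 had log2 changes above 0, each with an unadjusted p under 0.05. DESeq2 called 3 of them and limma 0. The most abundant, C1qtnf6, stood at 6.33 ± 1.19 and 12.4 ± 3.44 FPKM (log2 change 0.93, edgeR adjusted p = 0.104). C1ql1 and C1ql2 of this family had no count in any library.

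**Figure D4:**
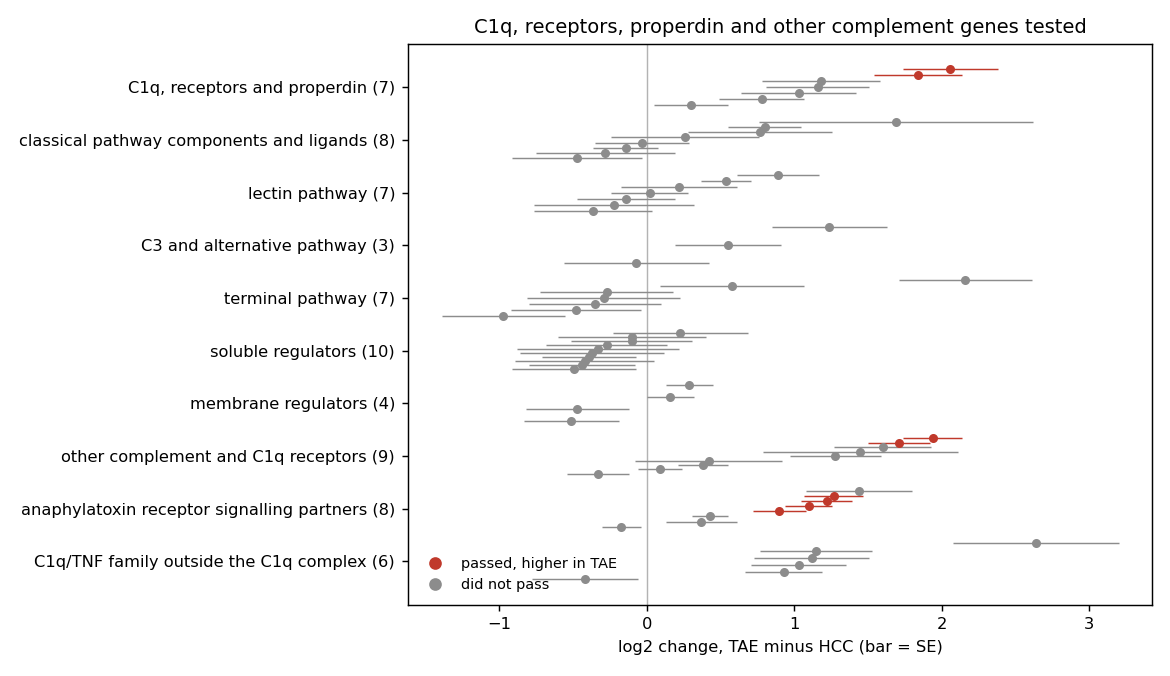
log2 change of TAE minus HCC with its SE (horizontal axis) for the 7 genes and the 62 other complement genes tested, 1 row of points per list with the number tested in parentheses; red points passed an adjusted p of 0.05. The 6 other genes that passed were in 2 lists, the receptors (Itgam and Itgax) and the signalling partners (Gna15, Arrb2, Pik3cg and Pik3r5).

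Of the genes next to these on the chromosome, none of those tested passed with edgeR. Within 100 kb of the C1q genes there were 3 other genes, all at lower levels than C1q. Zbtb40 stood at 3.96 and 3.52 FPKM in HCC and TAE (log2 change -0.24, edgeR adjusted p = 0.429), Ephb2 at 0.203 and 1.05 FPKM (2.32, adjusted p = 0.0588), and Epha8 had too few counts to be tested. Within 100 kb of the C5ar1 and C5ar2 pair, 5 other genes were tested (Meis3, Dhx34, Inafm1, Ccdc9 and Sae1), with log2 changes of 0.99, -0.50, 0.63, 0.33 and -0.29. Their means over all libraries were 10.4, 7.55, 2.17, 32.8 and 56.4 FPKM, beside 26.9 FPKM for C5ar1 and 6.10 FPKM for C5ar2.

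The genes whose log2 CPM followed these most closely over the 6 libraries were found among 8955 named genes of at least 5 FPKM on average. For C1qa they were RT1-CE7, P2rx4 and B2m, with Pearson coefficients of 0.9987, 0.9953 and 0.9951. RT1-CE7 is a class I histocompatibility gene with close copies, so its reads may be shared, and B2m encodes the light chain of class I molecules. For C3ar1 they were Ifngr1, Smoc2 and Cd48 (0.9986, 0.9984 and 0.9981), for C5ar1 Trem2, Aph1a and Cd33 (0.9994, 0.9987 and 0.9986), and for Cfp Atf3, Blvra and Lrpap1 (0.9981, 0.9944 and 0.9928). The coefficients describe 6 points in 2 groups and carry no test: 74 genes reached 0.99 with C3ar1, 47 with C5ar1, 13 with C1qa and 8 with Cfp. Coordinates other than those of the promoters are those of the deposited table. The submitters' processing notes list mRatBN7.2, but genes of chromosome 1 reach 282724300, past its end in that assembly. The build of these coordinates was not settled.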

How the data were processed

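Rat liver RNA of 6 libraries was analysed, 3 HCC and 3 TAE, grouped by sample title. Per the file headers, the authors deposited 1 table that holds, for each gene, the raw count and the FPKM of every library. The deposited FPKM values equal counts scaled to exonic size and library total (100% within 0.006). The build in the submitters' processing notes is mRatBN7.2. How reads were aligned, counted by strand and shared among several matches was not given in the sources used here, so close copies such as C4a and C4b are uncertain as single genes. The listed spans of C2 and Cfb overlap on the minus strand of chromosome 20, so the counts of these genes may not be separate. Per the labels' protocols, libraries were strand-specific (dUTP) and poly(A)-selected.

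The deposited counts were tested with edgeR 4.0.16 in R 4.3.3 (quasi-likelihood test, TMM scaling, filterByExpr), TAE minus HCC, two-sided, with Benjamini-Hochberg adjustment over 14499 genes at 0.05. SEs are the absolute log2 change over the root of the F statistic. Levels by library use log2 CPM with a prior count of 2. Exact permutation tests used scipy 1.17.1. Alternatives used DESeq2 1.42.0 and limma 3.58.1. The 7 genes and all lists were chosen with earlier results of these data known. Besides the 7 genes, those named are, per complement list, up to 4 that passed and the most abundant, and for 4 of the 7 genes the 3 nearest patterns. Neighbouring genes, Spi1, C7, C2, Fcnb, Colec10, Cfd, Cfb, Itgb2, Cd163, Cd3e, Cd3d and Ms4a1 were added after their values were seen. Of 135 list entries 131 matched by symbol, and Mbl2, Timd4, Pecam1 and Cyp3a2 were not analysed here. On simulated counts of TAE against HCC (14343 genes), edgeR recovered 58.2% of genes changed 2-fold and 100% of those changed 4-fold. The simulation changed only genes with higher counts and held no shift shared by many genes of a library, such as that of TAE replicate 3. It therefore does not show that a 4-fold change would pass in these data. C7 at 4.45-fold and Ephb2 at 4.99-fold did not pass (edgeR adjusted p = 0.052 and 0.0588).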

Additional observations from a re-analysis of the deposited data

How the results depend on the processing

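All 7 genes kept a positive log2 change in each of the 15 other fits, from 1.76 to 2.34 for C3ar1, 1.64 to 2.09 for C5ar1, 0.56 to 1.46 for C1qa, 0.64 to 1.41 for C1qb, 0.42 to 1.28 for C1qc, 0.39 to 1.00 for Cfp and 0.19 to 0.50 for C5ar2. Of the 7 genes, 2 passed in the fit reported, 4 with DESeq2, and 0 to 6 when 1 library was left out. Of the other complement genes 6 passed as reported, 11 with library totals only, 11 without a filter on low counts, 17 with DESeq2, and 0 to 22 when 1 library was left out (20 higher and 2 lower without TAE replicate 2, 9 higher and 13 lower without TAE replicate 3). Over all genes 437 passed as reported, 720 with upper-quartile scaling, 1036 with library totals only, 829 without a filter, 1664 with DESeq2, 701 and 709 with limma at pseudocounts of 1 and 0.1, and 0 to 3569 when 1 library was left out. The cause was not tested. With the replicate number as a block, 0 of the 7 genes, 0 of the other complement genes and 0 of all genes passed, while 2984 of all genes had an unadjusted p under 0.05. Deviations of same-numbered libraries from their group means correlated at 0.1, -0.209 and 0.0335 across genes, so the numbers were not taken to pair the samples. Against Kupffer cell markers instead of macrophage markers, the mean TAE difference became 1.36, 1.38 and 1.22 for C1qa, C1qb and C1qc, 2.32 for C3ar1, 2.17 for C5ar1, 0.63 for C5ar2 and 1.05 for Cfp, so that it changed sign for the C1q chains, C5ar2 and Cfp. With 1 library left out, the difference against macrophage markers was -0.44 to -0.02, -0.36 to -0.03 and -0.58 to -0.15 for the C1q chains, 0.58 to 0.89 for C3ar1, 0.48 to 0.73 for C5ar1, -1.0 to -0.82 for C5ar2 and -0.66 to -0.41 for Cfp. C3 had a log2 change of 0.12 without TAE replicate 1 and 0.30 without TAE replicate 2, Mbl1 of 0.04 and 0.16, and C9 of 0.09 without TAE replicate 2. Without TAE replicate 3, the values were -0.84, -1.18 and -1.14. With 80 to 152 counts in several libraries, C3ar1 in HCC and C5ar2 throughout carry the largest counting error of the 7.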
